A study of Mus musculus with 14 samples.

Results

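The genes described here are 8 transcription factors of limb development, Tbx2, Tbx3, Tbx4, Tbx5, Tbx15, Tbx18, Pitx1 and Shox2, in bulk RNA-seq of 14 clones of mouse bone marrow skeletal cells. They were taken by gene symbol, so that they are 8 of the 30503 genes of the count table, and 6 of them were among the 17358 genes with enough counts to be tested. Tbx4 and Tbx5 were counted but not tested.

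Each library is 1 culture grown from a single tdTomato+ cell of the femoral marrow, after removal of the distal growth plate and the proximal end of the bone. All mice carried Fgfr3-creER, a tamoxifen-dependent Cre transgene driven by Fgfr3 sequences, together with the R26R(tdTomato/+) reporter, and all were given tamoxifen at postnatal day 21. The Fgfr3-WT (P23) group held 5 clones isolated at day 23 and grown to passage 8. The Fgfr3-p53 cKO clones also carried Trp53fl/fl, so that the same pulse deletes the tumor suppressor p53 in the marked cells. Of these, 5 clones were isolated at day 28 and sampled at passage 8 (P28), and 4 were isolated at 4 months and sampled at passage 6 to 8 (P4M). The Fgfr3-WT libraries belong to submission 1303 and all cKO libraries to submission 2963, so genotype and submission cannot be told apart. Age at isolation also differs between all groups, so it cannot be told apart from genotype in comparisons with Fgfr3-WT. P4M and P28 share a submission but differ in age and in range of passage. Which clones share a mouse is not given in the labels, and p values therefore measure the spread between these clones only. Clones are numbered within their group, and equal numbers in different groups have no relation.

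T-box proteins bind DNA through a shared domain, and several of them act early in limb formation. Pitx1, a paired-type homeodomain factor, and its downstream gene Tbx4 are known for the hindlimb, whereas Tbx5 is known for the forelimb. Tbx2 and Tbx3 are closely related repressors that also restrain cell cycle inhibitors, Tbx15 and Tbx18 form another pair that acts in skeletal and mesenchymal development, and Shox2 is a homeobox factor needed for growth of the proximal limb bones.

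Library totals lay between 25688946 and 52857424 counts. Levels are given as CPM (counts scaled to the TMM-adjusted library total) when clones are compared, and as TPM, which is corrected for transcript length, when genes are compared. The upper limit taken for a gene at 0 was 3 counts, which covers counting error only and corresponded to 0.0564 CPM in the deepest library and 0.121 CPM in the shallowest. Trp53, the targeted gene, averaged 55.0 ± 7.68 CPM in Fgfr3-WT clones (SD, n = 5), 2.47 CPM in P28 clones and 2.10 CPM in P4M clones, with no overlap between the genotypes. Fgfr3-WT clone 1 stood apart, as the only clone with more than a trace of the Y-linked gene Ddx3y (123 CPM) and with a correlation of 0.878 to 0.907 with the other Fgfr3-WT clones over all tested genes, against 0.909 to 0.944 among those. In P28, clones 1, 2 and 3 correlated at 0.969 to 0.980 and clones 4 and 5 at 0.976, whereas pairs across these lay at 0.931 to 0.944. Summed TPM of 8 mesenchymal markers lay between 1512 and 6072 over all clones, whereas 8 hematopoietic, 8 endothelial and 8 skeletal muscle markers summed to at most 66.0, 108 and 19.3. These sums rest on few genes. Vim made up most of the mesenchymal sum, at 1298 to 5789 TPM in Fgfr3-WT clones. Pdgfrb was at least 54.5 TPM in every clone, whereas in P4M clones Thy1 was at most 0.02 and Lum at most 1.11 TPM. Cd68, Vwf and Acta1 reached 66.0, 105 and 19.3 TPM in the other 3 lists. Ptprc, which defines hematopoietic cells, stayed at or below 0.154 CPM, and Cdh5 and Myod1, which define endothelial and skeletal muscle cells, were at 0 TPM in all clones.

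Reads of 50 bases can separate the members. Over all annotated transcripts, no run of 50 bases was shared between any 2 of the 8 genes. Within the coding sequence of the 3 related pairs, the longest identical stretches were 14 bases for Tbx2 and Tbx3, and 23 bases both for Tbx4 and Tbx5 and for Tbx15 and Tbx18. These stretches, which a whole read cannot fit into, are printed below from the GENCODE M21 transcripts on the coding strand, all in lower case as no base is singled out.
Tbx2 and Tbx3: ctggaggccaagga
Tbx4 and Tbx5: cagctgaaaattgagaacaaccc
Tbx15 and Tbx18: catagctctaagtggatggtggc
Shared runs of 50 bases did occur with genes that overlap a member on the chromosome, in 67 of 6660 runs of Tbx3, 836 of 4668 of Tbx18, 177 of 2606 of Pitx1 and 104 of 3304 of Shox2. Strand was not stated for the counting, so that reads there cannot be told apart. The partners of Tbx3, Tbx15, Tbx18 and Pitx1 had at most 241 counts in a clone, whereas Rsrc1, the partner of Shox2, had 1059 to 4213.

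Among the members, only Tbx15 passed the test at an FDR of 0.05, and it was lower in cKO clones. In P28 against Fgfr3-WT, 0 of 6 tested members were called higher (19.2% of all tested genes were) and 1 lower (19.7%). In P4M against Fgfr3-WT the counts were 0 higher (22.3%) and 1 lower (23.6%), and for all cKO clones against Fgfr3-WT 0 higher (23.1%) and 1 lower (25.7%). Between P4M and P28 no member was called in either direction by edgeR (3.34% of genes higher and 3.88% lower), with 1 member at an unadjusted p under 0.05 and 1 called by DESeq2, in both cases Tbx3. The numbers called lower are near what all genes gave at this size of list, and no excess of changed genes among the members can be read from them. Over the 6 members the median log2 fold change from Fgfr3-WT was 0.02 for P28, -0.17 for P4M and 0.24 for all cKO clones, where all tested genes had medians of -0.02, -0.06 and -0.05. From P28 to P4M it was 0.29, where all genes had -0.01.

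**Figure D1:**
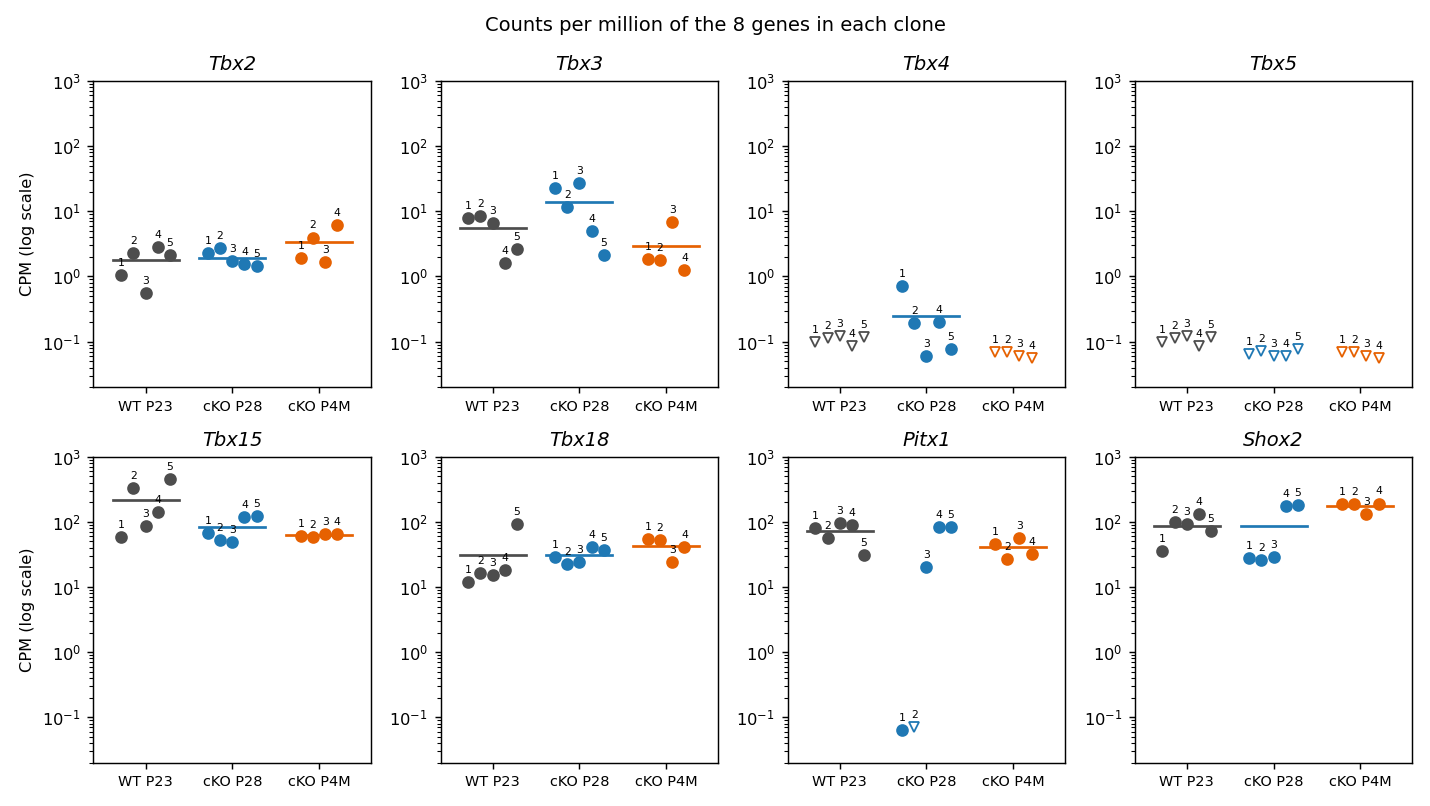
CPM of each gene on a log axis, with 1 point per clone and its number above it, for Fgfr3-WT (P23), Fgfr3-p53 cKO (P28) and Fgfr3-p53 cKO (P4M); lines are group means, drawn where every clone had at least 3 counts, and open triangles mark the level of 3 counts in clones with fewer. Pitx1 is near 0 in P28 clones 1 and 2 alone, Shox2 splits the P28 clones, and Tbx15 is high and spread in Fgfr3-WT clones.

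Pitx1, on chromosome 13 (chr13:55825051-55836192, minus strand, mm10 for this and all positions below), specifies hindlimb identity and was read at a substantial level in all but 2 clones. Its level was 81.5, 57.5, 96.8, 90.4 and 30.7 CPM in Fgfr3-WT clones 1 to 5. In P28 clones it was 0.0645, 0.0478, 20.4, 84.2 and 84.2 CPM, and in P4M clones 46.1, 26.6, 57.4 and 31.9 CPM. P28 clones 1 and 2 thus had next to none, with 3 and 2 counts against 775 to 4177 in the other 12 clones, while P28 clones 4 and 5 lay among the Fgfr3-WT clones. The groups overlapped in every comparison, and the fold change of P28 against Fgfr3-WT was -0.92 on the log2 scale with an SE of 1.17 and a 95% confidence interval from -3.44 to 1.60 (edgeR, adjusted p = 0.564). The spread of log2 CPM in P28 was 4.98 (SD, n = 5), against 0.68 in Fgfr3-WT and 0.50 in P4M clones. The 4 P4M clones were within the range of the Fgfr3-WT clones but for clone 2, which was just below it, and the log2 fold change of P4M was -0.82 with an interval from -3.52 to 1.88 (edgeR, adjusted p = 0.622).

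Tbx4, the hindlimb T-box gene, and Tbx5, its forelimb counterpart, were scarcely read. Tbx4 (chr11:85886422-85916097, plus strand) gave 2 counts in Fgfr3-WT clone 1 and 0 in the other 4 Fgfr3-WT clones. P28 clones gave 33, 8, 3, 10 and 3 counts and P4M clones 2, 1, 2 and 2. Every P28 clone had more Tbx4 counts than any clone of the other groups, but 4 of these 5 held 10 or fewer, and P28 clone 1 gave 33 of the 57 counts of its group. Scaled for depth the groups overlapped, since P28 clone 3 at 0.0596 CPM was below Fgfr3-WT clone 1 at 0.0652 CPM. Summed over clones, P28 exceeded Fgfr3-WT 17.8 times, with an exact 95% interval for counting error from 4.71 to 150.5, and exceeded P4M 6.85 times, from 3.12 to 17.8. With no filter on low counts the P28 difference from Fgfr3-WT was called by edgeR (adjusted p = 0.00911), whereas P4M against P28 (adjusted p = 0.112) was not. Tbx5 (chr5:119832668-119885219, plus strand) gave 1 count in P4M clone 1 and 0 in all others. Its presence was not detectable at this depth in the other 13 clones, where up to 3 counts would be missed.

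The genes next to these differed from them in level. Tbx2 lies 44473 bases before Tbx4 on chromosome 11, and Tbx3 lies 147943 bases before Tbx5 on chromosome 5. Both were read in all 14 clones.

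Tbx2 (chr11:85832551-85841948, plus strand), a repressor linked to bypass of senescence, was low throughout. Fgfr3-WT clones had 1.04, 2.26, 0.566, 2.79 and 2.14 CPM, and P28 clones had 2.28, 2.70, 1.73, 1.57 and 1.44 CPM. P4M clones had 1.89, 3.96, 1.66 and 6.09 CPM. Only P4M clones 2 and 4 were above all clones of the other groups, and the groups overlapped. The log2 fold change was 0.14 (95% interval -0.84 to 1.12) in P28 and 0.95 (-0.08 to 1.98) in P4M against Fgfr3-WT, with edgeR adjusted p of 0.83 and 0.122.

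Tbx3 (chr5:119670669-119684724, plus strand), its paralog and likewise a repressor of cell cycle inhibitors, differed more between clones. Fgfr3-WT clones had 8.01, 8.46, 6.59, 1.62 and 2.61 CPM. P28 clones had 22.8, 11.8, 27.5, 4.94 and 2.13 CPM, and P4M clones had 1.82, 1.80, 6.95 and 1.24 CPM. P28 clones 1, 2 and 3 were above all other clones, whereas P28 clones 4 and 5 were in the range of Fgfr3-WT clones and all P4M clones but clone 3 were below every P28 clone. P4M against P28 gave a log2 fold change of -2.23 with an SE of 0.79 and an interval from -3.93 to -0.52, which did not pass in edgeR (adjusted p = 0.0981) and passed in DESeq2 (adjusted p = 0.0195). Over all alternatives its adjusted p ranged from 0.0195 to 0.225. P28 against Fgfr3-WT gave 1.34 (-0.18 to 2.87, edgeR adjusted p = 0.150) and P4M against Fgfr3-WT -0.88 (-2.51 to 0.74, edgeR adjusted p = 0.358).

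Tbx15 (chr3:99240381-99354259, plus strand), which is known for the size and shape of the skeleton and for dermal patterning, was the one member called in the main edgeR fit. Fgfr3-WT clones had 59.1, 329, 85.7, 142 and 459 CPM. P28 clones had 67.8, 52.6, 48.6, 117 and 124 CPM, and P4M clones had 61.7, 57.9, 64.8 and 64.4 CPM. The Fgfr3-WT clones were spread over nearly the whole range, with clones 2 and 5 far above all others and clone 4 next. Fgfr3-WT clone 1 was at the level of the cKO clones and Fgfr3-WT clone 3 was within the range of the P28 clones. The 4 P4M clones hardly differed from each other. The groups overlapped in both comparisons with Fgfr3-WT. Tbx15 was lower in P28 (log2 fold change -1.39, SE 0.49, edgeR adjusted p = 0.0389), in P4M (-1.79, SE 0.54, edgeR adjusted p = 0.0157) and in all cKO clones (-1.59, SE 0.42, edgeR adjusted p = 0.00671), a fold of 3.01 in the last. P4M and P28 did not differ by more than their spread (-0.40, 95% interval -1.51 to 0.71, edgeR adjusted p = 0.668).

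The Tbx15 result in P28 depended on the clones and settings used. Of the 14 fits that left out 1 clone, 8 called it, and it was lost without Fgfr3-WT clone 2 or 5, without P28 clone 1, 2 or 3, or without P4M clone 4, with adjusted p up to 0.121. It was also lost with no filter on low counts (edgeR adjusted p = 0.0705), with only these 2 groups in the fit (0.0783) and in limma on log2(TPM + 1) (0.202). In P4M and in all cKO clones all 14 such fits called it, with adjusted p up to 0.0416 and 0.0305, but limma called it in neither (adjusted p = 0.0632 and 0.0623). Marker sums of other cell types differed between groups too. The 8 chondrocyte markers summed to 488 to 6304 TPM in Fgfr3-WT, 528 to 1092 in P28 and 21.1 to 146 in P4M clones. The P28 sums thus lay within the Fgfr3-WT range, and in all cKO clones 5 of 7 tested markers were lower. Likewise 8 mural cell markers summed to 27.9 to 111 TPM in Fgfr3-WT, 1293 to 3077 in P28 and 334.5 to 632 in P4M clones, with 4 of 7 higher and 1 lower. The 8 osteoblast markers summed to 1209 to 4411, 4505 to 7865 and 5085 to 17393 TPM, with 6 of 8 higher and 1 lower. In all cKO clones 23.1% of all tested genes were called higher and 25.7% lower. Most of a sum could be 1 gene, so the sums alone do not show whether whole marker lists moved together. In P4M against Fgfr3-WT, 7 of 7 tested chondrocyte markers were called lower by edgeR, beside 23.6% of all genes. Of 8 osteoblast markers, 6 were higher there, beside 22.3%, and 1 was lower. In P28, 4 of 7 chondrocyte markers were lower (19.7% of all genes), and 3 of 8 osteoblast markers were higher (19.2%) and 1 lower. Acta2 held 1198 to 3002 TPM in P28 clones, against at most 79.2 in Fgfr3-WT clones. Spp1 held 1190 to 4381 TPM in Fgfr3-WT clones and at most 777 in P28 clones, where Col1a1 held 4023 to 6206. Col2a1 held up to 5426 TPM in Fgfr3-WT clones. Reticular and adipocyte markers, also 8, summed to 19.1 to 298, 338 to 726 and 92.3 to 318 TPM, with 1 of 6 tested higher. Their part in the Tbx15 difference was not tested, and in bulk RNA fewer cells of a kind and less RNA per cell cannot be told apart.

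Tbx18 (chr9:87702800-87731260, minus strand), the paralog of Tbx15 with roles in mesenchyme and in mural cells, had 12.1, 16.6, 15.3, 18.5 and 91.6 CPM in Fgfr3-WT clones. P28 clones had 29.2, 22.9, 24.6, 41.1 and 37.4 CPM, and P4M clones had 54.6, 52.9, 23.8 and 40.9 CPM. All 9 cKO clones were above 4 of the 5 Fgfr3-WT clones and below the fifth, clone 5, so that the groups overlapped. The log2 fold change of all cKO clones was 0.25 (95% interval -0.72 to 1.22, edgeR adjusted p = 0.674). Without Fgfr3-WT clone 5 it was 1.23 and passed the test (edgeR adjusted p = 0.00144), as it then did in P28 (0.99, adjusted p = 0.00987) and in P4M (1.46, adjusted p = 0.00119). Fgfr3-WT clone 5 was also the highest of all clones for Tbx15.

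**Figure D2:**
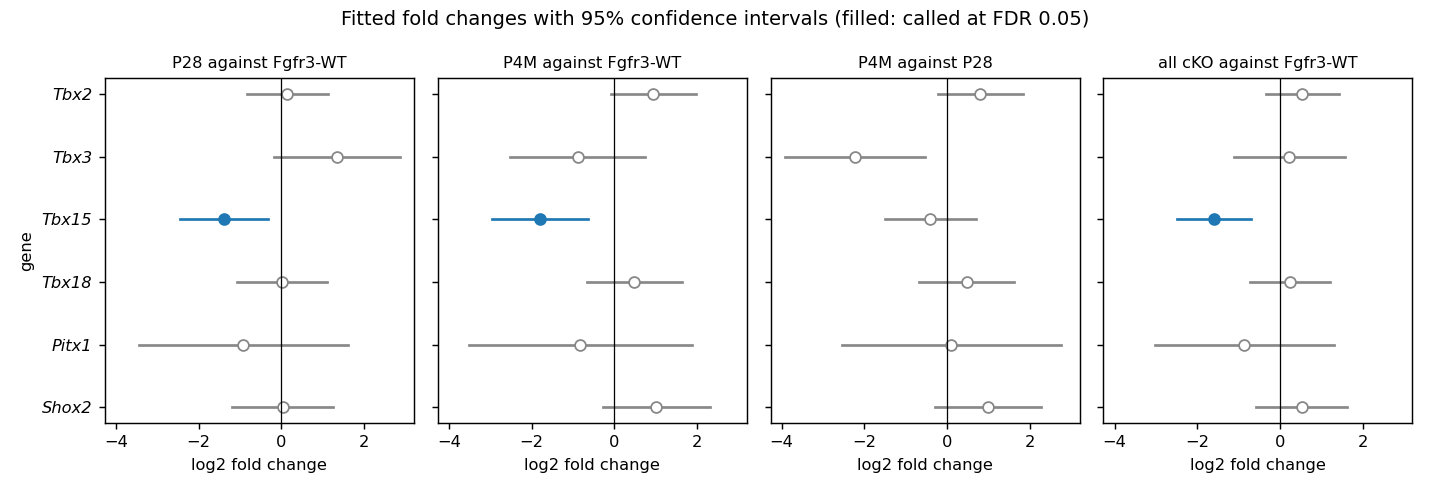
Fitted log2 fold changes (x axis) of the 6 tested members (y axis) in the 4 comparisons, with 95% confidence intervals as bars; filled points passed an FDR of 0.05. Only Tbx15 is filled, in the 3 comparisons with Fgfr3-WT, and the Pitx1 intervals are the widest.

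Shox2 (chr3:66971727-66981771, minus strand), a homeobox factor of the proximal limb, was the most abundant member by TPM in every P4M clone. Fgfr3-WT clones had 35.9, 100.1, 91.3, 131 and 71.5 CPM. P28 clones had 28.3, 25.8, 28.5, 176 and 181 CPM, and P4M clones had 189, 186, 132 and 191 CPM. The P28 clones fell on both sides of the Fgfr3-WT range, clones 1, 2 and 3 below all Fgfr3-WT clones and clones 4 and 5 above all of them. All 4 P4M clones were above every Fgfr3-WT clone, P4M clone 3 narrowly so. The P4M difference was nonetheless not called (log2 fold change 1.02, SE 0.60, 95% interval -0.26 to 2.31, edgeR adjusted p = 0.178), and when the P28 clones were kept out of the fit it was (1.02, edgeR adjusted p = 0.0300). P28 against Fgfr3-WT gave 0.03 (-1.19 to 1.25, edgeR adjusted p = 0.969), a mean over clones on both sides.

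The start of Shox2 is shown because another expressed gene runs across it: the Shox2 and Rsrc1 genes overlap by 382 bases on opposite strands. Below are the 250 bases before the Shox2 start on its strand, from RefSeq for GRCm38.p6 (chr3:66981772-66982021, minus strand), with a TATAAA match in capitals. They lie inside the Rsrc1 gene but in none of its annotated exons.
Shox2 upstream: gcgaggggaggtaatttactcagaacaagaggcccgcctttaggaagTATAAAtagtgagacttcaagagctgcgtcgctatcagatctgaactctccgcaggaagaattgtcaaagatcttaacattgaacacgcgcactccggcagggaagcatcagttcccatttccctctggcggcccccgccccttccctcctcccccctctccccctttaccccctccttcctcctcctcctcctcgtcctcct
The match starts at position -203 relative to the gene start, and 13.6% of 32851 promoter windows, each from 250 bases before to 50 after a gene start, hold TATAAA on either strand. Of the 8 members, 3 had such a window (Shox2, Tbx18 and Tbx4). None of these held the T-box half-site TCACACC (in 3.98% of all windows) or the homeodomain motifs TAATCC (7.06%) and TAATTA (5.29%), which both begin with TAAT. The 250 bases before the start used for Tbx4 (chr11:85896515-85896764) lie inside the Tbx4 gene as positioned above. They hold a TATAAA match, on either strand, at -85. Rsrc1, a splicing-related gene, had a log2 fold change of 0.74 in P4M against Fgfr3-WT (SE 0.14, edgeR adjusted p = 0.00106) and of 0.60 in P4M against P28 (SE 0.14, edgeR adjusted p = 0.0239), and 0.14 in P28 against Fgfr3-WT (SE 0.13, adjusted p = 0.44).

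Within P28, several members sorted the clones alike. Clones 1 and 2, with next to no Pitx1, and clone 3, with less of it than any other clone with more than 3 counts, were also those with the least Shox2 and the most Tbx3, and they had less Tbx15 and Tbx18 than clones 4 and 5. Prrx1, a marker of limb mesenchyme named here after its values were seen, was 790, 562 and 674 CPM in clones 1, 2 and 3 and 61.5 and 4.53 CPM in clones 4 and 5. In the other groups Prrx1 was 45.1 to 235 CPM (Fgfr3-WT) and 144 to 256 CPM (P4M). This sorting of clones was made from the outcome, so no test was run on it.

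**Figure D3:**
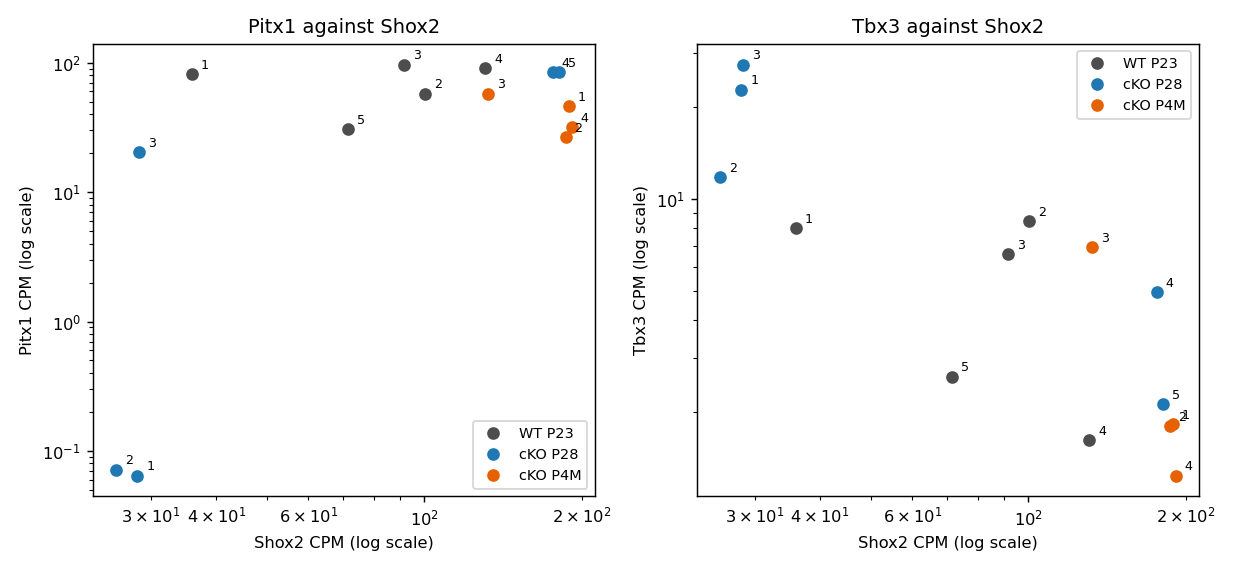
Pitx1 (left) and Tbx3 (right) against Shox2 in the 14 clones, in CPM on log axes, with the clone number beside each point and P28 clone 2 drawn at the level of 3 counts for Pitx1. P28 clones 1, 2 and 3 lie at the lowest Shox2 and the highest Tbx3, and clones 4 and 5 near the P4M clones.

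Per length, Tbx15, Shox2 and Pitx1 were the 3 most abundant members in all clones but Fgfr3-WT clone 5 and P28 clones 1 and 2. In Fgfr3-WT clones mean TPM was 88.4 ± 74.1 for Tbx15, 46.6 ± 16.2 for Shox2 and 42.9 ± 16.1 for Pitx1 (SD, n = 5), which overlapped. Tbx18 followed at 9.57 ± 10.9, then Tbx3 at 2.05 ± 1.21 and Tbx2 at 0.678 ± 0.324 TPM. In P28 clones the TPM of Shox2 (63.9 ± 62.5), Tbx15 (40.4 ± 18.6) and Pitx1 (28.5 ± 32.5) overlapped as well. In P4M clones Shox2, at 79.4 to 122 TPM, was above all other members in every clone, while Tbx15 (26.8 ± 1.63 TPM) and Pitx1 (26.1 ± 9.12 TPM, SD, n = 4) did not differ by more than their spread. Shox2 was the most abundant member in 7 clones, Tbx15 in 5 and Pitx1 in 2. Hence the leading member differed between clones of 1 group in Fgfr3-WT and P28, and in P4M it was the same in all.

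**Figure D4:**
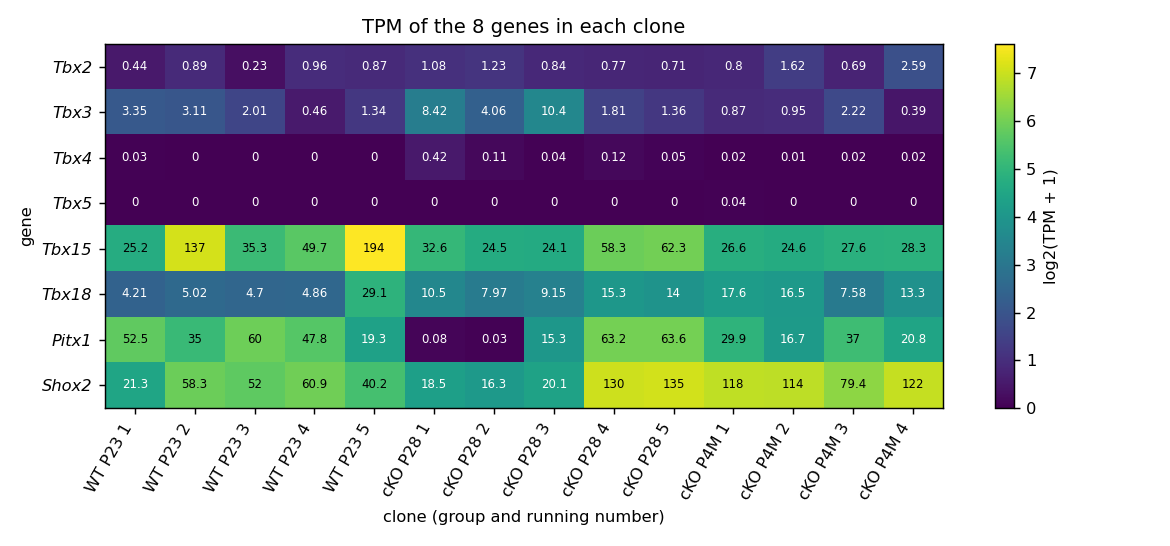
TPM of the 8 genes (rows) in the 14 clones (columns), written in each cell and coloured by log2(TPM + 1). Tbx4 and Tbx5 stay at or below 0.42 TPM, and the brightest cells are Tbx15 in Fgfr3-WT clones 2 and 5 and Shox2 in P28 clones 4 and 5 and the P4M clones.

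The paralogs were not read in fixed proportion. The ratio of Tbx15 to Tbx18 TPM was 5.99 to 27.3 in Fgfr3-WT clones, 2.64 to 4.45 in P28 clones and 1.49 to 3.64 in P4M clones. The ratio of Tbx3 to Tbx2 TPM was 0.479 to 8.74, 1.92 to 12.4 and 0.151 to 3.22 in the same order.

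For each tested member, the 3 protein-coding genes most alike over the 14 clones were sought among 13749, by Pearson correlation of log2 CPM. These are descriptions over clones that differ in genotype, submission and depth. Tbx3 was most like Myo5c (r = 0.94), Rwdd2a (0.92) and Zfp516 (0.90), Tbx15 most like Hs6st1 (0.94), Cpeb3 (0.92) and Ak1 (0.90), and Shox2 most like Tmem252 (0.95), Sdc3 (0.94) and Pgm5 (0.93). Tbx18 was most like Xylt2 and Dysf (0.92 each) and Efna3 (0.89), whereas the closest genes to Pitx1 were Cd28 (0.87), Hadhb and Fancl (0.81 each) and those to Tbx2 were Sik1 (0.84), 1110059E24Rik (0.83) and Rpp30 (0.82). After subtraction of the group means, r for these pairs lay between 0.72 for Hadhb with Pitx1 and 0.97 for Hs6st1 with Tbx15. The pairs were picked for high r on the same 14 clones, so the r that remains is no test of their likeness. Pitx1 had only 3 and 2 counts in P28 clones 1 and 2, and the weight of these clones in its r was not tested.

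The nearest tested protein-coding genes on either side of the members numbered 12. In all cKO clones 4 of them were higher and 2 lower, beside 23.1% and 25.7% of all genes. Brip1, a DNA repair helicase beyond Tbx4, had a log2 fold change of 3.46 (SE 0.62, edgeR adjusted p = 0.000558). Bcas3, on the other side of Tbx2, gave 0.11 (SE 0.17, adjusted p = 0.618).

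Of the 11 other T-box genes, 5 had enough counts to be tested, and 4 of these were called in at least 1 comparison. In P28, 3 were higher and 1 lower, beside 19.2% and 19.7% of all tested genes. In P4M (22.3% and 23.6% of all genes) and in all cKO clones (23.1% and 25.7%) 2 were higher and 1 lower, with a median log2 fold change of 1.58 over the 5 in all cKO clones, also with genes at 0 set to their bound. Tbx20 and Eomes held at most 0 and 6 counts in a Fgfr3-WT clone, so they passed the filter on low counts through the cKO clones. A higher call was then the only one open to them, and these counts and the median are no evidence of a rise over the list. Tbx6, a factor of paraxial mesoderm, fell from 1.38 ± 0.306 CPM in Fgfr3-WT clones (SD, n = 5) to 0.364 in P28 and 0.266 in P4M clones, with no overlap (log2 fold change in all cKO clones -2.14, SE 0.32, edgeR adjusted p = 0.000160). Eomes, a factor of early mesoderm and of lymphocytes, rose from 0.0792 CPM to 2.41 and 2.47 CPM (log2 fold change 4.90, SE 1.08, edgeR adjusted p = 0.00231). The Fgfr3-WT clones held 0 to 6 counts of Eomes each, near the 3-count limit, so the size of its fold is uncertain. Its level ran from 0.463 to 6.05 CPM in P28 and from 0.320 to 7.07 CPM in P4M clones. Tbx20, a cardiac factor, was at 0 counts in all Fgfr3-WT clones and reached 1 to 68 counts in P28 clones and 0 to 104 in P4M clones (edgeR adjusted p = 0.0198). Mga, a large factor with both a T-box and a bHLH domain, was higher in P28 (52.5 and 81.2 CPM, log2 fold change 0.63, edgeR adjusted p = 0.0195), and its difference between P4M and P28 was not called (adjusted p = 0.217). Between P4M and P28 no other T-box gene was called by edgeR (3.34% of all genes higher and 3.88% lower), and 0 of 5 had an unadjusted p under 0.05.

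Of 28 other limb bud transcription factors, 25 were tested. In P28, 11 were higher and 1 lower, beside 19.2% and 19.7% of all tested genes. In P4M these were 9 and 2, beside 22.3% and 23.6%, and in all cKO clones 10 and 2, beside 23.1% and 25.7%. The medians were 1.31, 1.05 and 1.05 on the log2 scale, and whether the list differs from other genes was not tested. Alx4, En1 and Lhx9, called higher in each of these comparisons, held at most 5, 6 and 4 counts in a Fgfr3-WT clone. They passed the filter on low counts through the cKO clones, so a higher call was the only one open to them. The counts called higher are therefore no evidence of a rise over the list. Lhx9 and Lhx2, LIM homeobox factors of the limb bud, rose in all cKO clones by 4.23 (SE 0.51, edgeR adjusted p = 3.83e-05) and 3.42 (SE 0.46, edgeR adjusted p = 8.00e-05) on the log2 scale, from 0.0667 and 0.345 CPM, without overlap. Each Fgfr3-WT clone held only 1 to 4 counts of Lhx9, near the 3-count limit, so the size of its fold is uncertain. Prrx2, a homeobox factor of limb mesenchyme, rose from 32.7 ± 15.0 CPM to 124 ± 42.3 in P28 and 108 ± 9.76 in P4M clones (log2 fold change 1.83, SE 0.30, edgeR adjusted p = 0.000291). Irx5, an Iroquois factor, rose from 14.9 to 39.8 and 71.1 CPM (1.84, SE 0.40, edgeR adjusted p = 0.00227). Pbx2, a homeodomain partner of Hox proteins, averaged 39.0 CPM in Fgfr3-WT, 31.9 in P28 and 20.9 in P4M clones. It was lower in P4M (log2 fold change -0.90, SE 0.16, edgeR adjusted p = 0.000845) and in all cKO clones (-0.59, SE 0.13, edgeR adjusted p = 0.00247), whereas the P28 difference was not called (-0.29, 95% interval -0.62 to 0.04, edgeR adjusted p = 0.147). Between P4M and P28, Irx3 was higher and Meis1 and Pbx2 lower, beside 3.34% and 3.88% of all tested genes. Of the 8 mesenchymal markers, 0 were called higher and 1 lower in all cKO clones by edgeR, beside 23.1% and 25.7% of all genes.

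**Figure D5:**
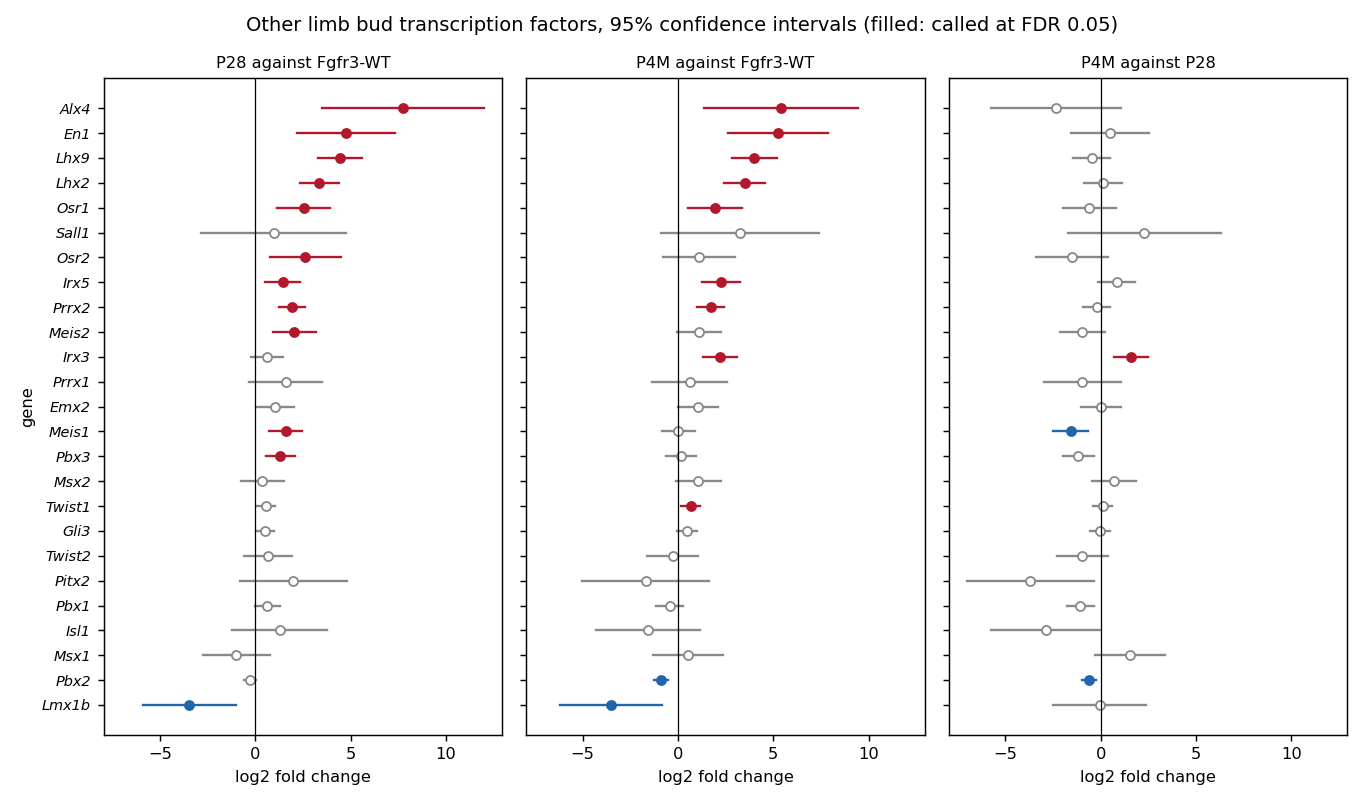
Fitted log2 fold changes (x axis) of 25 other limb bud transcription factors (y axis, ordered by all cKO against Fgfr3-WT) in 3 comparisons, with 95% confidence intervals; red points were called higher and blue points lower at an FDR of 0.05, and open points were not called. Alx4, En1, Lhx9 and Lhx2 are farthest to the right in both comparisons with Fgfr3-WT, which share those clones. Alx4, En1 and Lhx9 held at most 6 counts in any Fgfr3-WT clone.

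Signals and genes linked to the members were mixed. Of 19, 14 were tested. In P28, 7 were higher and 2 lower, beside 19.2% and 19.7% of all tested genes. In P4M these were 5 and 3, beside 22.3% and 23.6%, and in all cKO clones 5 and 6, beside 23.1% and 25.7%, with a median log2 fold change of 0.21 in the last. Cdh1, among the higher, was at 0 counts in all Fgfr3-WT clones, and Gdf5, among the lower in P4M, at 0 in all P4M clones. Such genes pass the filter on low counts through the groups where they are higher, so only 1 direction was open to them. Wnt5a, a ligand of limb outgrowth, rose from 27.7 ± 10.4 CPM to 105 and 119 CPM (log2 fold change in all cKO clones 2.01, SE 0.23, edgeR adjusted p = 2.47e-05). Bmp4 and Bmp2, ligands of skeletal patterning, rose by 6.48 (SE 0.96, edgeR adjusted p = 0.000159) and 4.33 (SE 0.72, edgeR adjusted p = 0.000336), from 0.675 and 2.42 CPM, with no overlap. The Fgfr3-WT clones held 0 to 70 counts of Bmp4 each and 88 in sum, so the size of its fold is uncertain. Runx2, the osteoblast regulator linked to Shox2, rose from 51.0 to 114 and 191 CPM (1.53, SE 0.26, edgeR adjusted p = 0.000386). Col2a1, the cartilage collagen, fell from a mean of 6955 CPM, ranging from 228 to 21551, to 750 and 24.4 CPM (-5.68, SE 0.97, edgeR adjusted p = 0.000425). It is itself part of the chondrocyte marker sums given above. Between P4M and P28, 1 gene of this list was higher, Cdkn1a, and 2 were lower, Col2a1 and Sema3c, beside 3.34% and 3.88% of all tested genes. Cdkn1a averaged 247.5 CPM in Fgfr3-WT, 35.2 in P28 and 169.9 in P4M clones. Against Fgfr3-WT it was lower in P28 (edgeR adjusted p = 0.000223) and in all cKO clones (0.000865), and not called in P4M (0.281).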

How the data were processed

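The authors cultured single tdTomato+ clones and made SMART-Seq v4 libraries, sequenced as single-end reads. By their methods, reads were aligned to mm10 with TopHat and Bowtie2, and non-ambiguous reads were counted with HTSeq. The deposited count table holds whole-number counts per gene without normalization. The deposited TPM table was normalized by the authors for length and depth, and the program is not given in the sources used here. Other deposited tables were not used. Counts of the 14 clones were fitted in 1 model of 3 groups with the quasi-likelihood test of edgeR 4.0.16 (robust, TMM, filterByExpr) in R 4.3.3, adjusted after Benjamini-Hochberg over all 17358 genes at an FDR of 0.05. DESeq2 1.42.0, limma 3.58.1 on log2(TPM + 1), other scalings and filters and leaving out each clone were alternatives. The steps were tested on simulated data. No batch term could be fitted. Positions and transcripts are those of GENCODE M21, on the build of the authors. Named list genes are the called ones with the lowest adjusted p in all cKO clones, at most 5 a list. The members and lists were chosen with earlier results of these data known.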

Additional observations from a re-analysis of the deposited data

Results flagged for a closer look

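Of 18 sets of clones (6 tested members in 3 groups), 2 held a clone far from the others, and chance alone marks about 1 in 20. For Tbx18, Fgfr3-WT (P23) clone 5 was the highest, and its gap to the next clone took 0.790 of the range of log2 CPM in its group. For Shox2, Fgfr3-p53 cKO (P4M) clone 3 was the lowest, with a gap of 0.925 of the range. That clone still had more Shox2 than every Fgfr3-WT clone.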

How the results depend on the processing

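Of 500 fold changes of members refitted under an alternative, 462 kept their direction and call, 11 lost the call, 5 gained it and 22 changed sign. The number of members called fell from 1 to 0 in P28 against Fgfr3-WT when only these groups were fitted and under limma, and lay between 0 and 1 when 1 clone was left out. In P4M and in all cKO clones it fell to 0 under limma and lay between 1 and 2 with 1 clone left out, the second being Tbx18 without Fgfr3-WT clone 5, and it rose to 2 in P4M, with Shox2, when only the groups compared were fitted. In P4M against P28 it rose from 0 to 1 under DESeq2. The changes of sign were in members that were not called: Tbx18 in P28 (-0.0006 with only the groups compared, and -0.21 to 0.99 with 1 clone left out), Shox2 in P28 (-0.10 under limma, and -0.42 to 0.26), Tbx2 in P28 (-0.0852 to 0.37), Tbx3 in all cKO clones (-0.20 to 0.44) and Pitx1 in P4M against P28 (-0.22 to 0.64). The cause was not tested. Pitx1 had too few counts in P28 clones 1 and 2 to be kept when at least 10 were asked for in every clone. Over all genes, calls in P4M against P28 numbered 3051 with only the groups compared, 2607 under DESeq2 and 480 to 2132 with 1 clone left out, and of the limb bud factors 6, 5 and 0 to 4 were then called, against 3. Of the signals and linked genes, 6 were called there under DESeq2 and with only the groups compared, against 3. Asking for at least 10 counts in every clone left 1 of the other T-box genes to be tested, and 1, 0 and 1 called in P28, P4M and all cKO clones. It left 13 limb bud factors to be tested and took their calls from 12 to 6 in P28 and from 11 to 5 in P4M, and those of the signals and linked genes from 8 to 5 in P4M. Of the other T-box genes, 5 were called in all cKO clones under DESeq2 and without Fgfr3-WT clone 1, against 3, and limma called 1 of them in P4M, against 3. With no filter on low counts, 1 limb bud factor was called in P4M against P28, against 3. TPM and CPM were printed side by side and, having different units, were not compared as settings. No paired analysis was possible because the labels give no replicate numbers. The numbers in the sample names count libraries within each of 2 separate submissions, and those that recur in both name unrelated libraries as far as the labels say. Tbx4 and Tbx5 were limited by depth.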
